A study of Mus musculus with 6 samples.

Results

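RNA-seq was performed on J1 mouse embryonic stem (ES) cells while they were moved from serum medium to 2i+vitC medium. Values were taken for 10 genes that act in meiosis or in male germ cells: *Sycp2*, *Sycp3*, *Hormad1*, *Sycp1*, *Syce1*, *Stag3*, *Smc1b*, *Brdt*, *Taf7l* and *Stk31*. They were chosen by name, and all 10 were found, each on a single row, among the 12626 genes of the processed files. The cells were a single WT line without feeders, grown with LIF on gelatin throughout. At D0 they were in medium with fetal bovine serum, and at D6 and D13 they had spent that number of days in serum-free medium with the Gsk3 inhibitor CT-99021, the MEK inhibitor PD0325901 and vitamin C. Each day had 2 biological replicates, 6 libraries in all, with between 73230745 and 83688345 reads on genes. No DNA methylation was measured in these files, so that promoter methylation of the members was not analysed here.

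In meiosis, homologous chromosomes are organised along a protein axis of cohesin and HORMA-domain proteins and are then joined along their length by the synaptonemal complex, which has lateral, transverse and central parts. Genes for these proteins are normally restricted to germ cells, and many of them have CpG-rich promoters that carry DNA methylation in other cell types. A separate repressor, the Polycomb complex PRC1.6, recognises the E-box CACGTG through MGA and MAX and an E2F-type site through E2F6 in promoters of this class. Conversion from serum to 2i+vitC is known to remove most CpG methylation from ES cells, and the days sampled here follow that conversion.

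RefSeq windows of 300 bases (250 before the transcription start and 50 after it, build GRCm38.p6) were found for all 10 members. *Hormad1* and *Stk31* had 2 windows each, of which the first listed was used. For the members that were called higher in at least 1 comparison, and for *Sycp1* which was not, the stretch before the start is printed without any annotated exon, 5′ to 3′ on the strand of the gene, with every CpG in capitals. The *Hormad1* stretch is chr3:95559427-95559676 (plus strand), the *Stk31* stretch chr6:49395289-49395538 (plus strand), the *Taf7l* stretch chrX:134476491-134476740 (minus strand) and the *Sycp1* stretch chr3:102936101-102936350 (minus strand). The *Smc1b* stretch, chr15:85131965-85132077 (minus strand), is shorter because the exons of its divergent neighbour *Ribc2* begin there.
Hormad1: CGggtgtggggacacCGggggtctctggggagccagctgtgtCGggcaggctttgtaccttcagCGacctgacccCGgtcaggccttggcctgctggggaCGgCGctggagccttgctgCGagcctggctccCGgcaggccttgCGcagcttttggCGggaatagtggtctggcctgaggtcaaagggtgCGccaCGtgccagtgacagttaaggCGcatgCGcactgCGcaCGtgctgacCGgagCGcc
Smc1b: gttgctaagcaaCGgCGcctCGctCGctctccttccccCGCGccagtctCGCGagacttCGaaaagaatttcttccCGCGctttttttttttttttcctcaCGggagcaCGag
Stk31: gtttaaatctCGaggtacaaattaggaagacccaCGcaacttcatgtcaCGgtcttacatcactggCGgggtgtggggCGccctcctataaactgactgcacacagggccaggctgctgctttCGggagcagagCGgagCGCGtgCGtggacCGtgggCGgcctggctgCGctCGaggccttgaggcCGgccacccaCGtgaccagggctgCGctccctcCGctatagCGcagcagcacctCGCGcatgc
Taf7l: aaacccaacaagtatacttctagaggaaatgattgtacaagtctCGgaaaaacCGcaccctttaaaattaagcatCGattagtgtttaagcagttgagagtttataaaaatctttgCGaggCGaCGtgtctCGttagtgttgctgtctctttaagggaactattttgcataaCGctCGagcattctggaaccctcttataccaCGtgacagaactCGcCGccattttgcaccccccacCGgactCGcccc
Sycp1: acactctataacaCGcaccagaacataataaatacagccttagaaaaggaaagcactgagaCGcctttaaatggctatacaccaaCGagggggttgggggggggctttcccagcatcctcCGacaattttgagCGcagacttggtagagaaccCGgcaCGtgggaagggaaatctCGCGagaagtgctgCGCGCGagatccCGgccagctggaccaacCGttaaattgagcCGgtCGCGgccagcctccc

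These printed stretches hold 19 CpG sites in *Hormad1*, 13 in *Smc1b*, 21 in *Stk31*, 14 in *Taf7l* and 17 in *Sycp1*. Over the whole 300-base windows, the members had a median of 22 CpG sites and a median observed to expected CpG ratio of 0.806. The median over 27025 RefSeq promoters, with 1 per gene, was 7 sites and a ratio of 0.389. Over the 9094 promoters that could be matched by name to a gene of the files it was 21 sites and a ratio of 0.773, close to that of the members. *Sycp2* was the poorest in CpG, with 10 sites and a ratio of 0.363, and *Smc1b* had the highest ratio, 1.08.

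The E-box CACGTG, which reads the same on both strands, was in the windows of 7 of 10 members (*Sycp3*, *Hormad1*, *Sycp1*, *Stag3*, *Brdt*, *Taf7l* and *Stk31*). It was in 7.24% of all promoter windows and in 10.5% of those matched to genes of the files. The E2F-type motif TTCCCGC, searched on both strands and so also as GCGGGAA, was in 4 of 10 (*Sycp3*, *Hormad1*, *Stag3* and *Smc1b*). It was in 4.66% of all windows and in 9.18% of the matched ones. The E-box and E2F-type matches did not overlap in any member. The windows of *Sycp2* and *Syce1* held neither motif, which says only that these letters were absent there. For *Stag3* the RefSeq start lies inside the GENCODE gene, so that its window may not be the sequence before the most upstream start.

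The days were compared with limma, fitted to all 6 libraries at once, on the log2 CPM of the processed files (the log2 of a gene's reads scaled to the size of its library, as normalized by the authors). Adjusted p-values are Benjamini-Hochberg values over 12928 genes and transposon families together. As in the methods of the study, a gene was called changed at over 4-fold with an adjusted p under 0.05. From D0 to D6, 3 of 10 members rose (*Hormad1*, *Smc1b* and *Stk31*), compared with 5.91% of all genes. From D6 to D13 only *Taf7l* rose, 1 of 10 members, compared with 0.388% of all genes. From D0 to D13, 3 of 10 rose (*Hormad1*, *Smc1b* and *Stk31*), compared with 7.45% of all genes, and a 2-fold minimum in place of 4-fold would add *Sycp3*, *Stag3* and *Taf7l* to make 6 of 10, compared with 16.6% of all genes. Of these, *Sycp3* was lost without D0 replicate 1 or D13 replicate 1, and *Stag3* without D13 replicate 2. No member was called lower in any comparison by limma, 0 had an unadjusted p under 0.05 in that direction, and limma with voom precision weights also called 0. Without D0 replicate 1, 1 of 10 was called from D0 to D6 (*Hormad1*), and without D6 replicate 1, D6 replicate 2 or D13 replicate 1, 0 of 10 were called from D6 to D13. Fewer cells with a gene on and less RNA per cell cannot be told apart in these bulk libraries.

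The median log2 fold change of the members was 0.52 in the first interval (D0 to D6), 0.29 in the second (to D13) and 1.44 over the whole course, while that of all genes was -0.01 in each. Both D13 libraries were above both D0 libraries in 8 of 10 members, and in 34% of all genes. *Sycp1* and *Sycp2* were the exceptions, with log2 fold changes of -0.39 and -0.73 from D0 to D13, neither of them called.

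**Figure D1:**
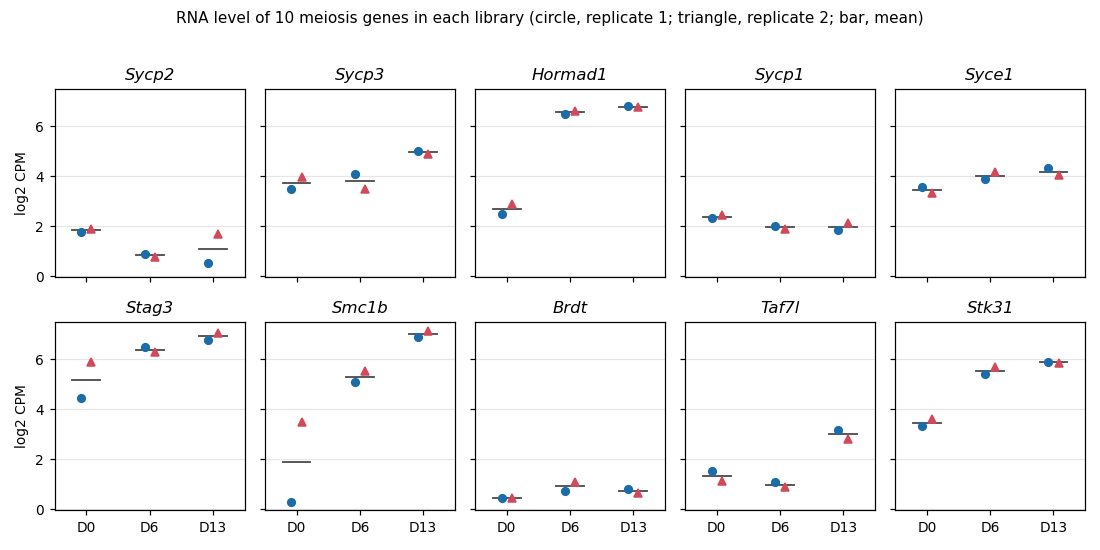
Log2 CPM of the 10 members in each library, by day, with circles for replicate 1, triangles for replicate 2 and a bar for the mean of 2. Hormad1, Smc1b and Stk31 step up between D0 and D6 and Taf7l between D6 and D13, while Brdt and Sycp1 stay within a narrow range and the D0 replicates of Smc1b lie far apart.

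The libraries of a day did not agree equally well, and this touches the cohesin genes most. The SD, over all genes, of the log2 difference between replicates was 0.65 in serum, 0.30 on D6 and 0.60 on D13. *Smc1b* was 9.08-fold higher in D0 replicate 2 than in D0 replicate 1, a gap exceeded by few genes (rank 32 of 12626 by absolute difference). *Stag3* was 2.76-fold higher in the same library, and the other 8 members differed by less than 2-fold between the D0 libraries. Among 34 other meiosis genes, from lists of axis, recombination, telomere attachment and germ-cell regulator genes, 11 were over 2-fold higher in D0 replicate 2, or 32.4%, compared with 6.73% of all genes. In the opposite direction it was 1 of 34, and 3.48% of all genes. For the members, values that rest on D0 are therefore given without a D0 library wherever leaving it out changed a call. For the other meiosis genes called from D0 to D13, this was done for that comparison.

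**Figure D2:**
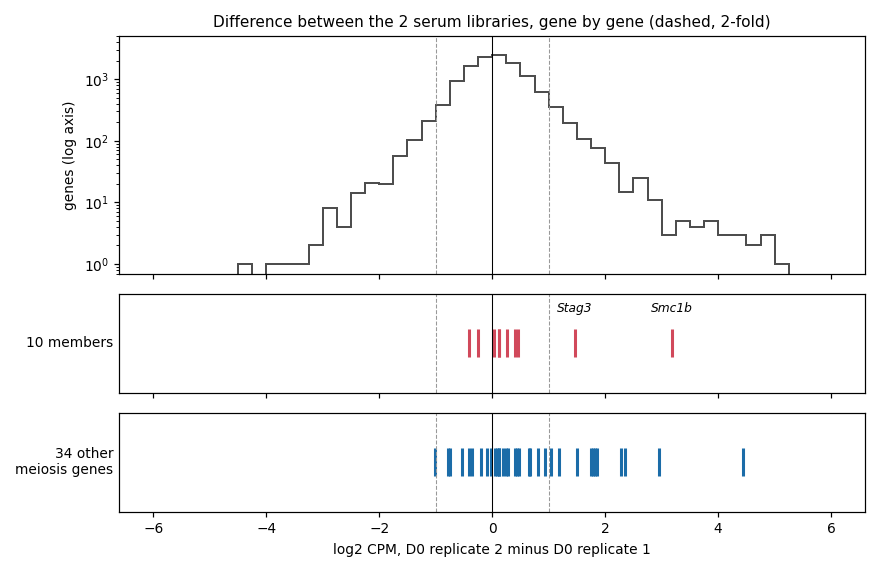
Log2 CPM of D0 replicate 2 minus D0 replicate 1, as a count of all 12626 genes in steps of 0.25 (top, log axis) and as a tick per gene for the 10 members and 34 other meiosis genes. Dashed lines mark 2-fold. Smc1b and Stag3 are the members to the right of the 2-fold line, where 11 of the 34 other meiosis genes also lie.

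*Hormad1*, at chr3:95559677-95587671, encodes a HORMA-domain protein of the unsynapsed chromosome axis that promotes recombination and checks pairing. It had a log2 CPM of 2.47 and 2.88 in serum, 6.48 and 6.62 on D6 and 6.79 and 6.76 on D13. The libraries of 2i+vitC were all above those of serum, and the D6 and D13 values were close. *Hormad1* rose by 3.87 ± 0.23 on the log2 scale (SE, adjusted p = 2.5e-05, limma) from D0 to D6, which is 14.7-fold. From D6 to D13 the change was 0.22, with a 95% interval from -0.31 to 0.75 (adjusted p = 0.6, limma). Over the whole course it rose 17.1-fold (4.09 ± 0.23, adjusted p = 1.3e-05, limma). It was called from D0 to D6 and from D0 to D13 in every alternative that was run, each library left out in turn included.

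*Sycp3*, at chr10:88459569-88473236, encodes the main structural protein of the axial and lateral elements. Its libraries gave a log2 CPM of 3.49 and 3.95 in serum, 4.10 and 3.49 on D6 and 4.99 and 4.91 on D13. The D0 and D6 libraries overlapped and both D13 libraries were higher. The log2 fold change was 0.07 ± 0.30 in the first interval (adjusted p = 0.89, limma), 1.15 ± 0.30 from D6 to D13 (adjusted p = 0.061, limma) and 1.23 ± 0.30 from D0 to D13 (adjusted p = 0.011, limma), so that the last passed the p threshold at 2.34-fold but not the 4-fold minimum. Without D0 replicate 1 it was 0.99 (adjusted p = 0.053, limma) and without D13 replicate 1 it was 1.18 (adjusted p = 0.054, limma), so that the p threshold was no longer passed. Of its 1139 exon bases, 535 overlap exons of *Chpt1* on the opposite strand. The libraries were stranded, but the strand setting of the read counting was not given in the sources used here. *Chpt1*, looked up after this overlap was seen, was at a log2 CPM between 3.18 and 3.43 at D0, at 5.10 and 4.65 at D6 and between 5.13 and 5.44 at D13. Its change from D0 to D6 was 1.57 (adjusted p = 0.003, limma), where that of *Sycp3* was 0.07. The part of *Chpt1* in the values of *Sycp3* was not tested.

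*Sycp2*, at chr2:178345293-178407685, encodes the partner of SYCP3 in the lateral element. Its log2 CPM was 1.77 and 1.89 in serum, 0.91 and 0.79 on D6 and 0.52 and 1.68 on D13. It was lower in every 2i+vitC library than in either serum library, with D13 replicates that were themselves 1.16 apart. The log2 fold change was -0.98 ± 0.45 in the first interval (adjusted p = 0.16, limma) and -0.73 ± 0.45 from D0 to D13 (adjusted p = 0.22, limma), neither past the threshold. The axis and lateral element genes thus had RNA levels that moved by different amounts. *Hormad1* passed the test and *Sycp2* passed neither threshold. *Sycp3* passed only the p threshold, and only with both D0 replicate 1 and D13 replicate 1 in the fit.

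The transverse filament and the central element were each represented by a gene, and neither was called in any comparison. *Sycp1*, at chr3:102818499-102936100, encodes the transverse filament that bridges the paired axes. In log2 CPM it measured 2.32 and 2.44 in serum, 2.02 and 1.90 on D6 and 1.84 and 2.13 on D13. These 6 values spanned a narrow range, with the serum libraries the highest. The log2 fold change between D0 and D13 was -0.39, with a 95% interval from -1.11 to 0.33 (adjusted p = 0.35, limma), an interval that does not reach 4-fold in either direction. *Syce1*, at chr7:140777229-140787852, encodes a central element protein that stabilises synapsis. The corresponding log2 CPM was 3.57 and 3.32 in serum, 3.87 and 4.15 on D6 and 4.34 and 4.04 on D13. Both later days lay above D0 without overlap, but the log2 fold change between D0 and D13, 0.74 ± 0.27 (adjusted p = 0.052, limma), passed neither threshold.

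Of the meiotic cohesin subunits, *Smc1b* was called and *Stag3* was not. *Smc1b*, at chr15:85064689-85131964, encodes the meiotic form of the SMC1 subunit. In log2 CPM, *Smc1b* measured 0.31 and 3.49 in serum, 5.08 and 5.50 on D6 and 6.87 and 7.12 on D13, or 97 and 980 reads, 2675 and 3865 reads, and 8358 and 10471 reads. The days did not overlap, although the serum libraries stood further apart than the D6 and D13 libraries. *Smc1b* rose by 3.40 ± 0.80 from D0 to D6 (SE, adjusted p = 0.015, limma) and by 5.10 ± 0.80 from D0 to D13 (adjusted p = 0.0014, limma), or 34.3-fold, the largest change of any member in this fit. From D6 to D13 the value was 1.70 ± 0.80 (adjusted p = 0.23, limma). The fit gives a gene the same SE in every comparison, so this SE also carries the gap between the serum libraries. For *Smc1b* the SD of log2 CPM between replicates was 2.25 in serum, against 0.30 and 0.18 on the later days. The p-value from D6 to D13 therefore does not judge that rise by the spread of its own libraries. Without D0 replicate 1 the change from D0 to D6 was 1.81 (adjusted p = 0.007, limma), under the 4-fold minimum, and the change from D0 to D13 was 3.51 (adjusted p = 0.00059, limma). Without D0 replicate 2 they were 4.99 and 6.69, so that the call at D13 did not rest on either serum library but its size did. Without D0 replicate 1 the change of *Hormad1*, 3.89, was larger than that of *Smc1b*.

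*Stag3*, at chr5:138280240-138312393, encodes the meiotic STAG subunit of cohesin. Its log2 CPM was 4.44 and 5.90 in serum, 6.48 and 6.27 on D6 and 6.76 and 7.05 on D13. The 3 days did not overlap, and the serum libraries again stood the furthest apart. The log2 fold change was 1.21 ± 0.41 in the first interval (adjusted p = 0.066, limma) and 1.74 ± 0.41 from D0 to D13 (adjusted p = 0.0098, limma), the latter 3.33-fold and under the 4-fold minimum. Without D0 replicate 2 the change from D0 to D13 was 2.47 and was called (adjusted p = 0.001, limma), and without D0 replicate 1 it was 1.00 and was not. Without D13 replicate 2 it was 1.59 and also missed the p threshold (adjusted p = 0.06, limma).

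*Stk31*, at chr6:49395604-49469501, encodes a germ-cell protein with a Tudor domain and a kinase-like domain. Libraries gave a log2 CPM of 3.34 and 3.59 in serum, 5.39 and 5.69 on D6 and 5.90 and 5.83 on D13. Replicates were close on every day, and the serum libraries stood below the others. *Stk31* rose by 2.08 ± 0.23 from D0 to D6 (SE, adjusted p = 0.00037, limma), 4.22-fold and just over the minimum, and by 2.40 ± 0.23 from D0 to D13 (adjusted p = 0.00012, limma). Without D0 replicate 1 or without D6 replicate 2 the change from D0 to D6 was 1.95 or 1.92, just under 4-fold.

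*Taf7l*, at chrX:134460118-134476490, encodes a germ-cell relative of the general transcription factor subunit TAF7. In log2 CPM, *Taf7l* measured 1.55 and 1.14 in serum, 1.08 and 0.89 on D6 and 3.18 and 2.80 on D13. The D0 values lay just above those of D6, and both D13 libraries were above all others. *Taf7l* was the member called from D6 to D13, where it rose by 2.01 ± 0.35 (SE, adjusted p = 0.027, limma), or 4.02-fold. The change from D0 to D6 was -0.36, with a 95% interval from -1.16 to 0.44 (adjusted p = 0.52, limma), and from D0 to D13 it was 1.64 ± 0.35 (adjusted p = 0.0062, limma), under 4-fold. The call from D6 to D13 was lost without D6 replicate 1 (2.10, adjusted p = 0.12, limma), without D6 replicate 2 (1.91, adjusted p = 0.2, limma) and without D13 replicate 1 (1.81, adjusted p = 0.14, limma).

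*Brdt*, at chr5:107331159-107387058, encodes the testis-specific BET bromodomain protein, which reads acetylated histones in male germ cells. Its log2 CPM was 0.44 and 0.46 in serum, 0.75 and 1.10 on D6 and 0.82 and 0.67 on D13, from between 106 and 182 reads. The 6 values lay close together, with both serum libraries the lowest. The log2 fold change between D0 and D13 was 0.30, with a 95% interval from -0.60 to 1.19 (adjusted p = 0.57, limma), so that the interval ends short of a 4-fold rise. With 2 libraries per day a two-sided exact permutation test of a single gene cannot give a p below 0.333, and these p-values come from the spread shared across genes by limma.

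**Figure D3:**
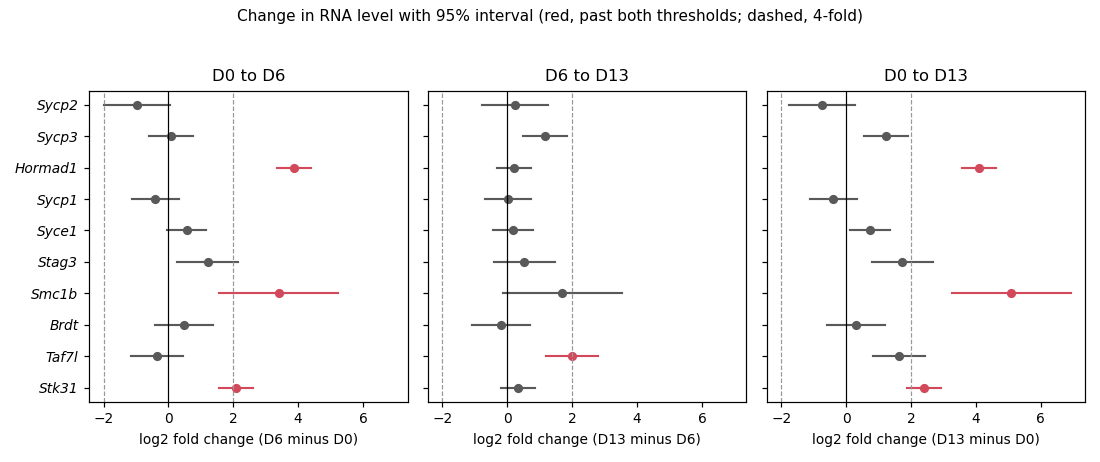
Log2 fold change of each member with its 95% interval in the 3 comparisons, in red where both thresholds were passed, with dashed lines at 4-fold. Hormad1, Smc1b and Stk31 are red from D0 to D6 and from D0 to D13, and Taf7l is red from D6 to D13. The intervals of Sycp1, Brdt, Sycp3 and Syce1 stay between the dashed lines in all 3 comparisons.

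Levels were compared between genes per length, as RPKM (CPM per kilobase of annotated exon, computed here). All 10 members were detected in serum, where the lowest value was 97 reads in a library. The RNA of *Sycp3*, *Syce1* and *Stag3* was not silent there, with at least 9.87, 6.84 and 5.15 RPKM in each serum library. At D0 the members ranged from 0.27 RPKM (*Brdt*) to 11.7 RPKM (*Sycp3*), with *Stag3* at 9.67 and *Syce1* at 7.50 next in order. The ranges of *Sycp3* and *Stag3* overlapped, as did those of *Stag3* and *Syce1*. At D6 *Hormad1* led at 54.4 ± 3.7 RPKM (SD, n = 2). *Stag3* was next at 19.8 ± 2.1, and these ranges did not overlap. At D13 *Hormad1* stood at 63.3 ± 1.1 RPKM (SD, n = 2), followed by *Smc1b* at 31.7, *Stag3* at 28.6 and *Sycp3* at 27.1 RPKM. These neighbours could not be ordered, since *Smc1b* overlapped *Stag3* and *Stag3* overlapped *Sycp3*. *Sycp1* at 1.16, *Sycp2* at 0.41 and *Brdt* at 0.33 RPKM were last at D13, and *Sycp2* and *Brdt* overlapped.

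Several members have a widely expressed relative, and none of 8 such counterpart genes was called in any comparison (limma with voom precision weights also called 0). Their unadjusted p was under 0.05 for 2 from D0 to D6 and for 2 from D0 to D13, all lower, and for 0 from D6 to D13. As a percentage of *Smc1a*, the SMC1 subunit of mitotic cohesin, *Smc1b* was at 0.61% and 5.07% in serum, 17.6% and 26.8% on D6 and 61.9% and 67.6% on D13, in RPKM. *Smc1a* itself differed by -0.10 on the log2 scale from D0 to D13 (adjusted p = 0.73, limma). *Stag3* was at 14.2% and 51.5% of *Stag2* at D0 and at 220.4% and 151.4% at D13, while the log2 difference of *Stag2* itself between these days was -1.02 (adjusted p = 0.023, limma), under the 4-fold minimum, with an adjusted p of 0.12 without D0 replicate 1 and 0.092 without D13 replicate 1 (limma). Against *Stag1*, whose log2 fold change between D0 and D13 was 0.07 (adjusted p = 0.83, limma), *Stag3* was at 24.3% and 71.7% at D0 and at 144.2% and 122.4% at D13.

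*Taf7l* stayed far below its relative *Taf7*, at between 1.38% and 7.86% of it over the 6 libraries, in RPKM. The log2 fold change between D0 and D13 was 0.06 for *Taf7* (adjusted p = 0.82, limma), -0.09 for *Brd3* (adjusted p = 0.73, limma) and -0.92 for *Brd2* (adjusted p = 0.0083, limma), the last at under 4-fold. Exon lengths come from GENCODE and the reads were counted on RefSeq, so these ratios carry an uncertainty in length that is the same in all libraries.

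**Figure D4:**
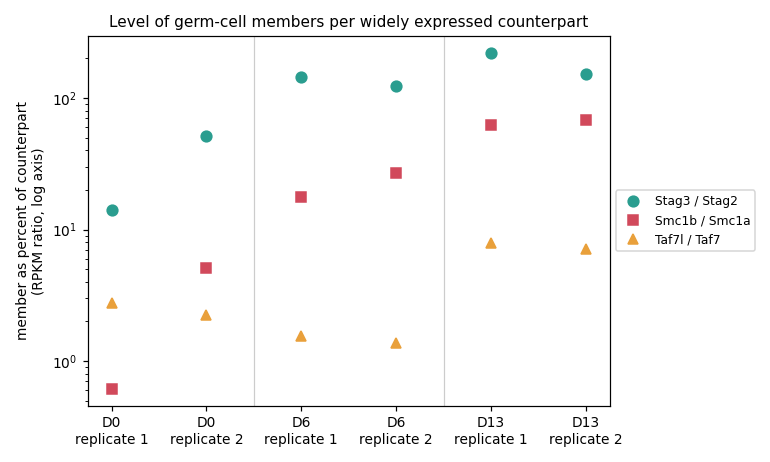
RPKM of 3 members as a percentage of a widely expressed relative in each library (log axis), with 100 standing for equal levels. Stag3 passes Stag2 in all 4 libraries of 2i+vitC, Smc1b reaches 61.9% and 67.6% of Smc1a at D13, and Taf7l stays between 1.38% and 7.86% of Taf7.

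Other meiosis genes were taken from 4 lists with 51 names, some of them aliases of the same gene, and 34 names were found in the files. Of these 34 genes, 5 rose in the first interval, 0 in the second and 8 over the whole course, compared with 5.91%, 0.388% and 7.45% of all genes. None was called lower, while 2, 3 and 5 had an unadjusted p under 0.05 in that direction and limma with voom weights called 0. From D6 to D13, 7 of the 34 had an unadjusted p under 0.05 upwards, and voom weights called 0. Their median log2 fold change was 0.05, 0.29 and 0.23 in these comparisons, so that the median gene moved little from D0 to D13 in comparison with the members.

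In the list of other axis, synaptonemal complex and cohesin genes, 3 of 8 were in the files and *Hormad2*, the relative of *Hormad1*, was called. Its log2 CPM was 0.60 and 2.46 in serum, 4.23 and 4.30 on D6 and 5.11 and 5.06 on D13. *Hormad2* rose by 2.74 ± 0.51 from D0 to D6 (SE, adjusted p = 0.005, limma) and by 3.56 ± 0.51 from D0 to D13 (adjusted p = 0.00087, limma). Its serum libraries were 3.62-fold apart. Without D0 replicate 1 these values were 1.81, under 4-fold, and 2.63, and without D0 replicate 2 they were 3.67 and 4.48.

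In the list of meiotic recombination genes, 21 of 24 were in the files, and *Rec114* and *Cntd1* were called from D0 to D13. *Rec114*, which encodes a cofactor of the enzyme that makes meiotic DNA breaks, had a log2 CPM of -0.01 and 1.50 in serum, 4.91 and 4.88 on D6 and 5.80 and 5.34 on D13, and rose by 4.82 ± 0.45 (SE, adjusted p = 0.0001, limma) from D0 to D13, or by 4.07 without D0 replicate 1 and 5.58 without D0 replicate 2. *Cntd1*, which encodes a cyclin-related protein needed for crossovers, rose by 3.23 ± 0.53 (adjusted p = 0.0017, limma). With serum libraries 3.54-fold apart, it was at 2.32 without D0 replicate 1 and at 4.14 without D0 replicate 2. The other 19 were not called, and the median log2 fold change of all 21 was 0.07 from D0 to D13. In the telomere attachment list, 3 of 9 names were in the files, with some genes listed under an alias as well. *Ccdc155*, which encodes a protein that links meiotic telomeres to the cytoskeleton, rose by 2.06 ± 0.66 from D0 to D13 (adjusted p = 0.035, limma). The call was lost without D0 replicate 1 (log2 fold change 0.89, adjusted p = 0.097, limma), without D13 replicate 1 (1.84, adjusted p = 0.18) and without D13 replicate 2 (2.29, adjusted p = 0.088), and the value was 3.24 without D0 replicate 2.

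In the list of meiotic entry and germ cell regulators, 7 of 10 were in the files and 4 rose from D0 to D13. *Dazl*, which encodes a germ-cell RNA-binding protein, had a log2 CPM of 2.83 and 2.64 in serum, 8.48 and 8.53 on D6 and 9.34 and 9.47 on D13, and rose by 6.67 ± 0.20 (SE, adjusted p = 2e-06, limma). *Sohlh2*, a germ-cell transcription factor, rose by 4.09 ± 0.33 (adjusted p = 5.3e-05, limma). *Stra8*, the factor through which retinoic acid starts meiosis, rose by 3.01 ± 0.47 (adjusted p = 0.0013, limma) to a log2 CPM of 3.48 and 2.82, with 2.42 without D0 replicate 1 and 3.6 without D0 replicate 2. *Dmrt1* rose by 2.82 ± 0.23 (adjusted p = 6.2e-05, limma). *Dazl* stood above every member at D13, at 228.1 RPKM.

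Among 7 genes of DNA methylation, *Dnmt3l*, *Dnmt3b* and *Dnmt3a* fell from D0 to D6 and from D0 to D13, 3 of 7 in each, compared with 3.9% and 6.01% of all genes. These encode the de novo methyltransferases and their cofactor. *Dnmt3l* fell by 6.32 on the log2 scale from D0 to D13 (SE 0.39, adjusted p = 2e-05, limma), *Dnmt3b* by 3.70 (SE 0.31, adjusted p = 6.9e-05, limma) and *Dnmt3a* by 2.39 (SE 0.25, adjusted p = 0.00018, limma). All 16 genes of PRC1.6 and its partners were in the files, and 0 were called in any comparison by limma or with voom weights. Their unadjusted p was under 0.05 for 2 higher and 2 lower in the first interval, for 0 higher and 2 lower in the second and for 2 higher and 5 lower over the whole course. From D0 to D13 the adjusted p was under 0.05 for 2 higher and 2 lower (limma), all under 4-fold. Their median log2 fold change between D0 and D13 was -0.40.

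Markers were examined for the labelled cell type and for others. All 8 ES cell markers were in the files, with a summed level between 3141 and 4444 CPM in the 6 libraries, and *Utf1* was called lower from D0 to D13 while *Nanog* was called higher from D0 to D6. None of 8 spermatid markers had a row in the files. All 7 primordial germ cell markers had one, with a summed level of 139.8 and 228.5 CPM in serum, 271.5 and 221.2 CPM on D6 and 520.9 and 422.2 CPM on D13. Of these 7, *Dppa3* rose from D0 to D13 (2.94, adjusted p = 0.00099, limma) and *Nanos3* from D0 to D6 (2.07, adjusted p = 0.012, limma), and no other was called. Below the 4-fold minimum, the log2 fold change was -1.74 for *Ddx4* and -1.43 for *Dnd1* from D0 to D6 (adjusted p = 0.012 and 0.007, limma), and -1.35 for *Prdm1* and 1.72 for *Itgb3* from D0 to D13 (adjusted p = 0.037 and 0.0057, limma). The mean of *Dppa3* was 49.5 CPM at D0 and 345.2 CPM at D13. The other 6 summed to 112.0 and 157.5 CPM in serum, 128.3 and 136.2 CPM on D6 and 119.6 and 133.1 CPM on D13, and these ranges overlapped. These and the other marker genes named here were picked after their values were seen. Primitive endoderm markers (7 of 9 in the files) summed to 353.9 and 495.1 CPM at D0 and to between 108.2 and 154.8 CPM later. From D0 to D13, 4 of the 7 were called lower (*Dab2*, *Lamb1*, *Col4a1* and *Col4a2*), compared with 6.01% of all genes. *Sox17*, *Pdgfra* and *Lama1* were not called, with log2 fold changes of 0.30, 0.69 and 0.59. Trophoblast markers (3 of 6 in the files) summed to at most 15.9 CPM and fibroblast markers (3 of 7) to at most 29.7 CPM in any library. *Krt7* of the trophoblast list was called higher from D6 to D13 and *Col1a2* of the fibroblast list lower from D0 to D13, while the trophoblast regulators *Cdx2*, *Elf5* and *Hand1* had no row. The part of these markers in the values of the members was not tested.

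**Figure D5:**
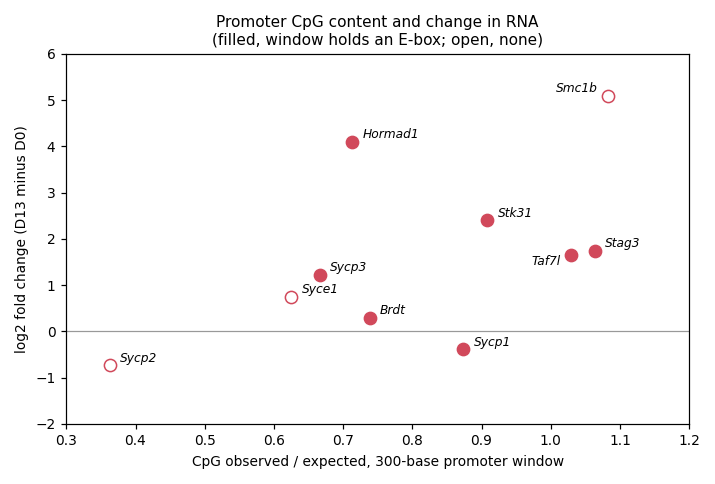
Observed to expected CpG ratio of the 300-base promoter window against the log2 fold change between D0 and D13 for the 10 members, filled where the window holds the E-box CACGTG. Members with an E-box range from -0.39 (Sycp1) to 4.09 (Hormad1), and Smc1b, with the highest CpG ratio and no E-box, has the largest value, 5.10.

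Members with the same promoter features differed in their calls. Of the 7 with an E-box, *Hormad1* and *Stk31* were called from D0 to D13 and *Sycp3*, *Sycp1*, *Stag3*, *Brdt* and *Taf7l* were not. *Smc1b* was called with no E-box in its window. *Sycp1* and *Stk31* had similar CpG ratios, 0.874 and 0.908, and log2 fold changes of -0.39 and 2.40.

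The genes most like the members were found by the root mean square difference between their centred log2 CPM over the 6 libraries and the mean centred profile of the 10 members. The nearest 5 were *Cyp4f17* (0.073), *Evi5l* (0.078), *Cercam* (0.093), *Ift52* (0.096) and *Aaed1* (0.100), in log2 units. These 5 were picked for the smallest distances, so the members cannot be judged against them. The members themselves lay between 0.295 (*Stag3*) and 1.65 (*Smc1b*) from that mean profile, so that it describes some of them poorly.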

How the data were processed

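RNA from 6 samples of J1 ES cells, 2 biological replicates per day, was made into stranded mRNA libraries and sequenced as paired ends. Per the labels and methods, the authors mapped reads to mm10 with TopHat (2.0.6) and RefSeq, counted them per gene with HTSeq (0.6.1), counted transposon families with Bowtie (1.0.0), joined both tables, applied TMM normalization and deposited log2 CPM from voom. Those deposited log2 values were used here. Every value of a gene was a whole number of reads plus 0.5 (100% within 0.05), so that reads were recovered, and 3 reads were at most 0.042 CPM. The files hold 12626 genes and 302 families, and every gene is above 1 CPM in at least 2 samples, so genes below this have no row. Capital G is missing from every gene name, which affects none of the members.

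Differences were tested with limma 3.58.1 (R 4.3.3), with a mean per day and a mean-variance trend, on all 6 samples, with Benjamini-Hochberg adjustment over 12928 rows. Simulated data with 200 genes changed from D0 to D6 by 2.5 on the log2 scale, over 12928 rows, gave 99.5% recovered and 0 unchanged rows called. Whether the simulated spread matched that between the real replicates, which differed by day, was not tested. The simulation therefore checks the fitting code and gives no rate of missed or false calls for the real libraries. Tables and figures used Python 3.11.15, pandas 2.3.3 and matplotlib 3.10.9. RPKM divides CPM by GENCODE vM21 exon length of transcripts with a RefSeq match, on GRCm38, the same build as mm10. Counting error is small at these depths, and an SD rests on 2 values. The members and lists were chosen with earlier results of these data known. From each list, genes called in at least 1 comparison were named, up to 6 by size of change from D0 to D13, with *Dazl* and the relatives of members, of which 1 is not reported here. Alternatives were a minimum of 10 reads in 2 samples, each pair of days fitted alone, a replicate block, each sample left out, voom weights, no trend, median centring, an offset of 2 reads, genes without families, a 2-fold minimum and an adjusted p under 0.01. Replicate numbers are shared between days, but no source ties them to a shared culture, and they were not used as pairs. Transposon families entered the fit and are not described.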

Additional observations from a re-analysis of the deposited data

How the results depend on the processing

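Of 480 recalculated log2 fold changes of members, 462 kept their direction and their call or lack of one, 9 lost a call, 4 gained a call and 5 turned in direction. A call here was over 4-fold and an adjusted p under 0.05 together, except in the alternatives with a changed threshold. With a 2-fold minimum or an adjusted p under 0.01, the call was judged at that threshold. With an offset of 2 reads, or with an adjusted p under 0.01, 0 members were called from D6 to D13 instead of 1, because *Taf7l* was close to 4-fold and had an adjusted p of 0.027 (limma). A 2-fold minimum gave 6 members from D0 to D13 instead of 3. With each library dropped, there were between 1 and 3 members from D0 to D6, between 0 and 1 from D6 to D13 and between 3 and 4 from D0 to D13. The lowest count from D0 to D6 came without D0 replicate 1, and counts of 0 from D6 to D13 came without D6 replicate 1, without D6 replicate 2 and without D13 replicate 1. With 1 sample left on a day, that sample was assumed to vary like the others. With the replicate block, 3, 1 and 3 members were called in the 3 comparisons, as without it, and no other call of a member changed. Over all genes the block moved the calls from 1238 to 1259, from 137 to 185 and from 1700 to 1710. Replicate differences over genes correlated between days with r of -0.13 (D0 and D6), 0.33 (D6 and D13) and 0.14 (D0 and D13), the highest being for D6 and D13. The numbers were not taken as pairs because no source ties them to a shared culture.

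Small changes turned in direction when a sample was left out. Between D6 and D13 the ranges were -0.33 to 0.83 for *Sycp2*, -0.12 to 0.17 for *Sycp1*, -0.067 to 0.59 for *Stra8*, -0.31 to 0.22 for *Stag1*, -0.34 to 0.50 for *Stag2*, -0.039 to 0.15 for *Brd3*, -0.75 to 0.086 for *Dnmt3b* and -0.21 to 0.27 for *Dnmt3a*. Between D0 and D6 they were -0.23 to 0.38 for *Sycp3* and -0.30 to 2.05 for *Ccdc155*. Between D0 and D13 they were -0.20 to 0.33 for *Stag1* and -0.054 to 0.18 for *Taf7*. None of these main values was called. The cause was not tested. Genes under the level that gave a row in the files cannot be described at any depth, and an SD over 2 samples is itself imprecise.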

Other observations

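Some genes outside the lists, picked after their values were seen, also separated the serum libraries. *Ddit3*, which encodes a transcription factor of the integrated stress response, had a log2 CPM of 0.96 in D0 replicate 1 and 5.81 in D0 replicate 2, against 3.46 and 3.54 at D6 and 4.61 and 4.82 at D13. *Chac1*, a target of the same response, had 0.79 and 5.77 at D0, and *Trib3*, another target, had 2.73 and 6.61. Among meiotic recombination genes, *Meiob* had -1.94 and 2.50 (20 and 494 reads) and *Msh5* had -1.32 and 1.63 (31 and 269 reads). *Meiob* and *Msh5* were both higher in D0 replicate 2 than in any 2i+vitC library, whereas *Smc1b* and *Stag3* were below every 2i+vitC library in both serum libraries. How these genes relate to the gap of *Smc1b* between the serum libraries was not tested.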
